A study of Mus musculus with 18 samples.

Results

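The genes described here are the Bcl2 family of apoptosis regulators and Faim2, a list of 10 gene names: Bik, Faim2, Bcl2, Bcl2l1, Bcl2l2, Mcl1, Bax, Bak1, Bad and Bid. Members were found by their gene name in the count tables, 1 for dorsal root and 1 for sciatic nerve. Of the 10, 9 had counts in both tables, as 14 transcripts, among 12782 genes named in both. Bak1, a pore-forming relative of Bax, was not analysed here. Bik was chosen by its measured ratio of Kif5A to IgG precipitate in dorsal root, and Faim2 was chosen by the same ratio in sciatic nerve. Those ratios and every other measure built on the same libraries are therefore given for these genes as values with no test.

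Proteins of the Bcl2 family decide whether the outer mitochondrial membrane stays intact. Bcl2, Bcl-xL (Bcl2l1), Bcl-w (Bcl2l2) and Mcl1 keep cells alive by holding back Bax and Bak1, which form pores and release cytochrome c, while the BH3-only proteins Bad, Bid and Bik favour cell death by binding the survival members or, for Bid, by activating Bax and Bak1 directly. Faim2 is not a family member: it is a membrane protein of the TMBIM family, expressed mainly in neurons, that inhibits cell death signalled through the Fas receptor. In sensory neurons, mRNA of Bcl2l2 is known to be carried into axons, where its protein protects the axon from degeneration.

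RNA was sequenced from axoplasm, the cytoplasm pressed out of nerve, of C57B6 mice with no genetic change or treatment stated in the labels. Dorsal root (DR, close to the neuronal cell body and the spinal cord) and sciatic nerve (SN, farther out) came from the same animals, with 5 animals pooled in each of 3 independent biological repeats. Kif5A, one of the kinesin heavy chains that move cargo along axons, was precipitated with its bound RNA by a rabbit antibody (10 ug for about 200 ug of lysate, for 3 h), the control precipitation used 10 ug of rabbit IgG, and part of the axoplasm was kept as input. The 6 groups of 3 libraries are thus input, IgG precipitate and Kif5A precipitate of each tissue. Axoplasm pressed from whole nerve also holds RNA of glia and other cells, so that fewer cells of a type and less RNA per cell cannot be told apart in any comparison between tissues.

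Transcripts with a gene name held between 11584418 and 22580824 reads per library. The IgG precipitates stood apart: between 5.59% and 9.10% of the 12782 genes had no read in an IgG library, against 0.407% to 2.01% in a Kif5A or input library. Among the members' 14 transcripts, 23.8% of the 42 values in the DR IgG libraries and 16.7% in the SN IgG libraries were 0 or 1, against 2.38% with Kif5A in DR, 7.14% with Kif5A in SN and 0 in both inputs. Replicate 3 of the SN input also differed from its group: without it, the genes that differed between the inputs went from 542 to 2661. Replicate 3 of the IgG groups had such an effect too. For IgG against input in DR, the count went from 160 to 1367 without it, against 8 and 60 without replicates 1 and 2. In SN it went from 492 to 864, against 272 and 236. Levels below are in CPM, reads relative to the library's total of named reads after TMM scaling, as mean ± SD of n = 3 libraries.

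Bik is a BH3-only protein of the endoplasmic reticulum that promotes apoptosis; its gene lies at chr15:83526862-83544634 (+ strand, GRCm38), and 1 transcript, Bik-201 of 5 exons and 942 bases, was counted. In DR, the input held 21, 42 and 41 reads, the Kif5A libraries 39, 23 and 47, and the IgG libraries 0, 0 and 1. Bik was thus all but missing from the DR IgG precipitate, while the Kif5A libraries lay in the range of the input. All Kif5A libraries were above all IgG libraries, as in 7.79% of the genes tested. The level was 0.0192 ± 0.0332 CPM with IgG, 1.95 ± 0.576 with Kif5A and 2.18 ± 0.873 in the input. The summed Kif5A reads relative to IgG gave a ratio of 90.0, with an exact 95% Poisson interval of 15.8 to 3586, and the input relative to IgG gave 97.2, with an interval of 17.1 to 3875. These intervals describe the counting error of the reads that chose Bik and are no test of the difference. Kif5A and input overlapped, with a log2 ratio of -0.16 that turned to 0.17 with library size alone. A sum of at most 1 read over the IgG libraries with at least 20 reads in each Kif5A library, limits taken from the reads of Bik itself, was met by 33 of the 12782 genes, 0.258%.

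In SN the order of the Bik libraries was another one. The input held 69, 36 and 99 reads, the Kif5A libraries 136, 124 and 65, and the IgG libraries 236, 430 and 290. Here the IgG precipitate held the most: 15.3 ± 5.08 CPM, against 6.09 ± 2.35 with Kif5A and 4.35 ± 1.28 in the input, and every IgG library lay above every library of both other groups. Kif5A to IgG had a log2 ratio of -1.28 (SE 0.85), which did not pass (adjusted p = 0.796, edgeR's quasi-likelihood test with Benjamini-Hochberg adjustment), although all 3 Kif5A libraries were below all 3 IgG libraries, as in 6.66% of the genes tested. IgG to input was 1.81 (SE 0.75, unadjusted p = 0.0265, adjusted p = 0.190 by edgeR), and 10% of the genes tested had their IgG libraries above the input without overlap. DESeq2 put this difference past the threshold of 0.05 (adjusted p = 0.0142), the only member value in which another test changed the call. Kif5A to input was 0.48 (SE 0.73, adjusted p = 0.987 by edgeR), with overlapping libraries.

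The IgG precipitates of the tissues thus stood on opposite sides of the input for Bik: below it in DR and above it in SN, each without overlap. Of the 12782 genes, 161 (1.26%) had such opposite positions, in either order. The IgG-to-input log2 ratio differed by 8.07 between the tissues and the Kif5A-to-IgG ratio by -7.46 (SN minus DR); these use the libraries that chose Bik and were not tested. Markers of fat cells moved with Bik in SN only: 5 of 7 were measured and none was at 0 in any group. Their summed level in SN was 24818 to 77165 CPM with IgG, 5530 to 58331 with Kif5A and 3512 to 12645 in the input. In DR it was 184 to 336 with IgG, 154 to 269 with Kif5A and 113 to 210 in the input, unlike Bik. Of endothelial markers, 1 of 6 had IgG above input in DR (median log2 -0.61) and 6 of 6 in SN (0.53, 1 passing). Of neutrophil markers, 0 of 5 did in DR and 4 of 5 in SN, where 1 passed as lower. Fibroblast markers went the other way, with 6 of 6 in DR and 1 of 6 in SN, as did macrophage markers, with 4 of 7 and 0 of 7. Erythroid markers had 2 of 6 in DR and 0 of 6 in SN, where 4 passed as lower. Over all genes tested, 52.6% had IgG above input in DR and 50.7% in SN, where 1.41% passed as higher and 2.44% as lower. The part of these cell types in the Bik values was not tested.

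**Figure D1:**
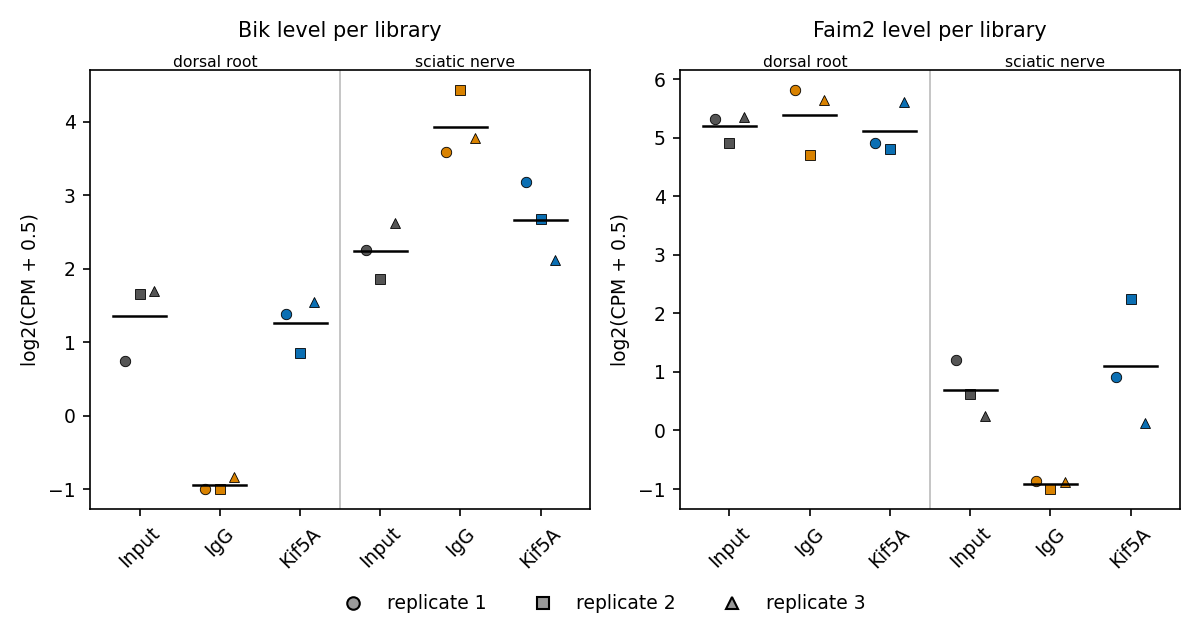
Levels of Bik (left) and Faim2 (right) in each library, as log2(CPM + 0.5) on the vertical axis, for input, IgG and Kif5A libraries of dorsal root and sciatic nerve; symbols mark replicates and bars the mean of the 3 log values. With IgG, Bik lay at 0, 0 and 1 read in dorsal root and above both other groups in sciatic nerve, where Faim2 lay at 1, 0 and 1 read.

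Faim2, the neuronal inhibitor of Fas signalling, was read from 1 transcript of 12 exons and 4661 bases at chr15:99497012-99528165 (- strand). In SN the input had 29, 12 and 12 reads, the Kif5A libraries 22, 90 and 10, and the IgG libraries 1, 0 and 1. All Kif5A libraries lay above all IgG libraries, as in 9.42% of the genes tested, and all IgG libraries lay below the input, as in 14.2%, while Kif5A overlapped the input. The ratio of summed reads was 71.1 for Kif5A to IgG (95% Poisson interval 19.3 to 594) and 36.9 for input to IgG (9.71 to 312), again a description of counting error in the reads that chose the gene and no test. Kif5A to input was 0.83 on the log2 scale and -0.25 without replicate 2 of the Kif5A libraries, whose 4.25 CPM stood above 1.38 and 0.593 in the others. Sums of at most 2 IgG reads with at least 10 reads in each Kif5A library of SN occurred in 135 genes, 1.06%, again with limits taken from the gene itself.

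In DR, where Faim2 was not chosen, no difference between the precipitates and the input was found. Its CPM was 39.3, 29.7 and 40.3 in the input, 55.9, 25.7 and 49.8 with IgG and 29.6, 27.7 and 48.4 with Kif5A, so that all 3 groups overlapped. The log2 ratio was -0.26 (SE 0.71) for Kif5A to IgG, -0.049 (SE 0.62) for Kif5A to input and 0.26 (SE 0.62) for IgG to input, none past the threshold (adjusted p = 1.00, 0.993 and 0.854, edgeR's quasi-likelihood test). With library size alone as the scaling, Kif5A to input turned to 0.27.

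The inputs differed. Faim2 had 36.5 ± 5.85 CPM in the DR inputs and 1.17 ± 0.566 in the SN inputs, with no overlap, as in 11.6% of genes (lower in SN). It was 30.5-fold lower in SN (log2 -4.93, SE 0.43, adjusted p = 3.23e-04 by edgeR's quasi-likelihood test), the only test of a member past the threshold. Of the 12325 genes tested between the inputs, 4.4% passed, 1.86% as lower in SN. The call held in all 14 alternatives run, with log2 values of -5.43 to -4.59. With replicate 3 of the SN input left out it was -4.64 (adjusted p = 1.70e-06 by edgeR). The inputs did not choose Faim2. Yet a gene chosen with 1, 0 and 1 reads in SN IgG may tend to be low in SN as a whole, so the test need not be independent of the choice.

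Cell type markers moved with Faim2 between the inputs. Of 10 markers of neurons and axons, 8 were measured and none was at 0: 6 of these had lower values in SN, 4 passed the test as lower (Tubb3, Nefl, Nefm and Snap25), and their summed level was 885 to 936 CPM in the DR inputs and 172 to 209 in the SN inputs. Snap25, a protein of the synaptic release machinery, was lower by a log2 value of -4.39 (SE 0.23, adjusted p = 1.42e-05 by edgeR), and Stmn2, a regulator of axonal microtubules, had 0.17 (SE 0.21, adjusted p = 0.811 by edgeR). Markers of astrocytes, glia of the central nervous system listed after the values were seen, were all measured: 5 of 5 had lower values in SN, 3 passed, and their sum was 766 to 1025 CPM in the DR inputs against 119 to 320 in SN. Aqp4, the water channel of astrocytes, had a log2 value of -6.81 (SE 0.33, adjusted p = 1.32e-05 by edgeR). Of 5 oligodendrocyte markers, also listed after the values were seen, only Mobp, a myelin protein of the central nervous system, was measured. It had 305 to 632 CPM in the DR inputs and 1.47 to 3.73 in the SN inputs. Only 2 of 10 sensory neuron markers were measured, Calca and Isl1, and neither passed. Of other lists, 5 of 5 measured neutrophil and 3 of 6 erythroid markers passed as lower in SN, and 5 of 5 fat cell, 5 of 5 skeletal muscle, 4 of 4 mast cell and 2 of 6 fibroblast markers passed as higher. For Schwann cells, 1 of 5 non-myelinating markers (Gfap, which astrocytes also express) passed as lower, while none of 6 endothelial and 7 macrophage markers passed. The part of these cell types in the Faim2 difference was not tested.

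**Figure D2:**
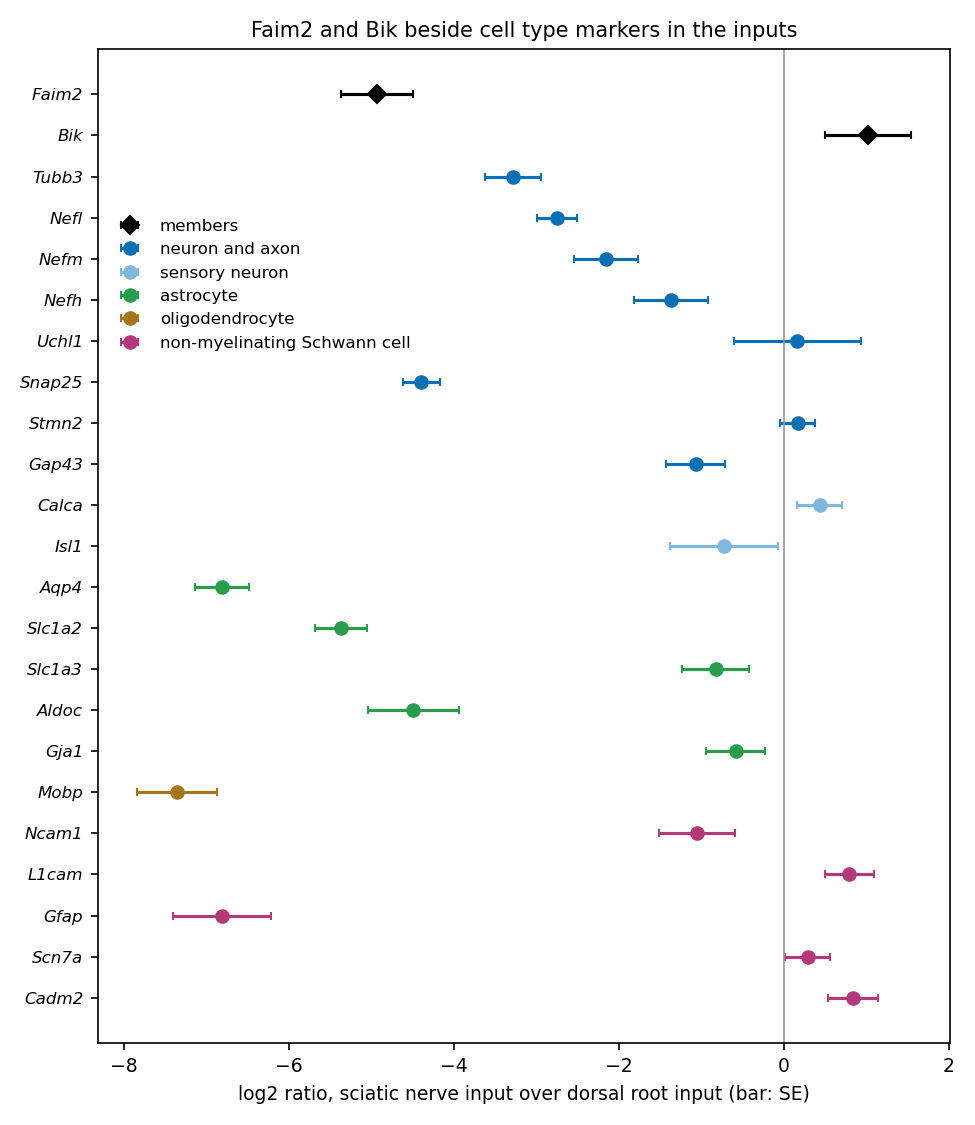
Log2 ratio of sciatic nerve input to dorsal root input (horizontal axis; bars show the SE) for Faim2 and Bik (diamonds) and for measured markers of 5 cell types (coloured circles). Faim2 at -4.93 lies beside Snap25 at -4.39 and Aldoc at -4.49, while Stmn2 lies at 0.17.

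Bik went the other way: 1.17, 2.64 and 2.72 CPM in the DR inputs and 4.27, 3.11 and 5.67 in the SN inputs. All SN values were higher, as in 10.5% of genes, but the log2 ratio of 1.02 (SE 0.53) did not pass (adjusted p = 0.421, edgeR). The 7 other members had log2 ratios between -0.35 (Bid) and 0.31 (Bad) in this comparison, with overlapping libraries, and none passed.

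Bcl2, the founding survival protein of the family (chr1:106538178-106714274, - strand), was among the abundant members. Its CPM in DR was 185, 162 and 186 in the input, 290, 349 and 241 with IgG and 294, 258 and 214 with Kif5A. Both precipitates lay above the input without overlap and overlapped each other. The log2 ratio was 0.52 (SE 0.27, adjusted p = 0.653) for Kif5A to input and 0.72 (SE 0.28, unadjusted p = 0.0171, adjusted p = 0.157) for IgG to input, neither past the threshold of edgeR's test. In 15.8% of the genes tested the DR Kif5A libraries lay above the input without overlap, and in 12.3% the IgG libraries did. Kif5A to IgG was -0.15 (SE 0.31, adjusted p = 1.00, edgeR). In SN the mean was 175 ± 14.1 CPM in the input, 183 ± 74.1 with IgG and 178 ± 23.3 with Kif5A, with log2 ratios between 0.0054 and 0.062, none past the threshold. Both Kif5A ratios turned below 0 with RLE size factors, and IgG to input did so with limma-voom.

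Mcl1, a short-lived survival protein (chr3:95658788-95663176, + strand), had 287 ± 35.3 CPM in the DR input, 381 ± 76.2 with IgG and 326 ± 41.7 with Kif5A, and the groups overlapped. In SN its level was 351, 302 and 340 CPM in the input, 411, 607 and 378 with IgG and 409, 383 and 303 with Kif5A. All IgG libraries lay above the input, as in 10% of the genes tested. The log2 ratio of IgG to input was 0.49 (SE 0.25, adjusted p = 0.295, edgeR), and Kif5A to IgG was -0.17 (SE 0.26) in DR and -0.30 (SE 0.26) in SN, none past the threshold.

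Bcl2l2, which encodes the axonal survival protein Bcl-w (chr14:54883377-54888234, + strand), passed no test with Kif5A. Its CPM in DR was 27.1, 38.3 and 31.9 in the input, 14.7, 20.5 and 31.6 with IgG and 24.1, 15.3 and 32.5 with Kif5A. The SN input had 46.5, 40.2 and 30.7, the IgG libraries 22.3, 34.4 and 42.2 and the Kif5A libraries 23.4, 29.1 and 40.3. Precipitates and input overlapped in both tissues, with the precipitates' means below the input's. Kif5A to IgG was 0.16 (SE 0.50) in DR and -0.052 (SE 0.50) in SN, and Kif5A to input was -0.44 (SE 0.42) and -0.34 (SE 0.42); adjusted p was between 0.864 and 1.00 by edgeR. Library size alone as the scaling turned the SN Kif5A-to-IgG value to 0.010.

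Bcl2l1, the gene of Bcl-xL (chr2:152780668-152831728, - strand), was scarce, with 18 to 92 reads per library outside DR IgG and 14, 33 and 56 there. Its log2 ratio of Kif5A to IgG was 0.62 (SE 0.89) in DR and -0.65 (SE 0.90) in SN; the difference between the tissues, -1.27 (SE 1.27), did not pass either (adjusted p = 1.00 for DR and for the difference and 0.956 for SN, edgeR). The SE of these values was about that of the ratios themselves.

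Bax, the pore former that the survival members hold back (chr7:45461697-45466898, - strand), had means in the 6 groups from 167 ± 45.9 CPM with Kif5A in DR to 202.4 ± 67.9 with IgG in SN. Its spread was wide in the SN input, at 165, 106 and 334 CPM, the highest value being replicate 3. Kif5A to IgG was -0.18 (SE 0.35) in DR and -0.17 (SE 0.35) in SN, and Kif5A to input was -0.056 (SE 0.39) and -0.20 (SE 0.39), with none past edgeR's threshold; the DR value turned to 0.27 with library size alone, and the SN value to 0.23 with replicate 3 left out of every group. The ratio of Bcl2 reads to Bax reads, often read as a balance of survival against death, was 2.13, 1.81 and 0.972 in the DR Kif5A libraries, 1.34, 2.48 and 1.05 with IgG and 0.970, 0.890 and 1.25 in the DR input. In SN it was 1.42, 0.882 and 0.900 with Kif5A, 0.468, 2.06 and 0.746 with IgG and 1.01, 1.59 and 0.573 in the input. The groups overlapped within each tissue. Read ratios favour the longer transcript, here Bcl2 at 7191 bases against Bax at 867. Relative to length, the ratio was below 1 in all 18 libraries, from 0.0564 (SN IgG, replicate 1) to 0.299 (DR IgG, replicate 2). It was 0.256, 0.218 and 0.117 in the DR Kif5A libraries. These are ratios of mRNA, and protein was not measured.

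Bad, a BH3-only protein switched off by phosphorylation downstream of growth factors (chr19:6941861-6951899, + strand), ranged from 10.1 ± 2.18 CPM in the DR input to 16.4 ± 8.59 with IgG in SN. Kif5A to IgG was -0.25 (SE 0.61) in DR and -0.040 (SE 0.61) in SN, a value that turned to 0.045 with library size alone. Bid, which caspase-8 cleaves to link death receptors to mitochondria (chr6:120891930-120916853, - strand), had 7.31, 5.09 and 5.58 CPM in the DR input, 0.857, 4.12 and 3.79 with IgG and 3.90, 1.54 and 3.77 with Kif5A. Both DR precipitates lay below the input without overlap, as did 15.8% of the genes tested with Kif5A and 17.9% with IgG. The log2 ratio was -0.96 (SE 0.74, adjusted p = 0.787) for Kif5A to input and -1.03 (SE 0.74, adjusted p = 0.462) for IgG to input, neither past edgeR's threshold. In SN, Bid was 4.68 ± 1.94 CPM in the input, 9.25 ± 4.81 with IgG and 5.71 ± 1.31 with Kif5A, with overlap.

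**Figure D3:**
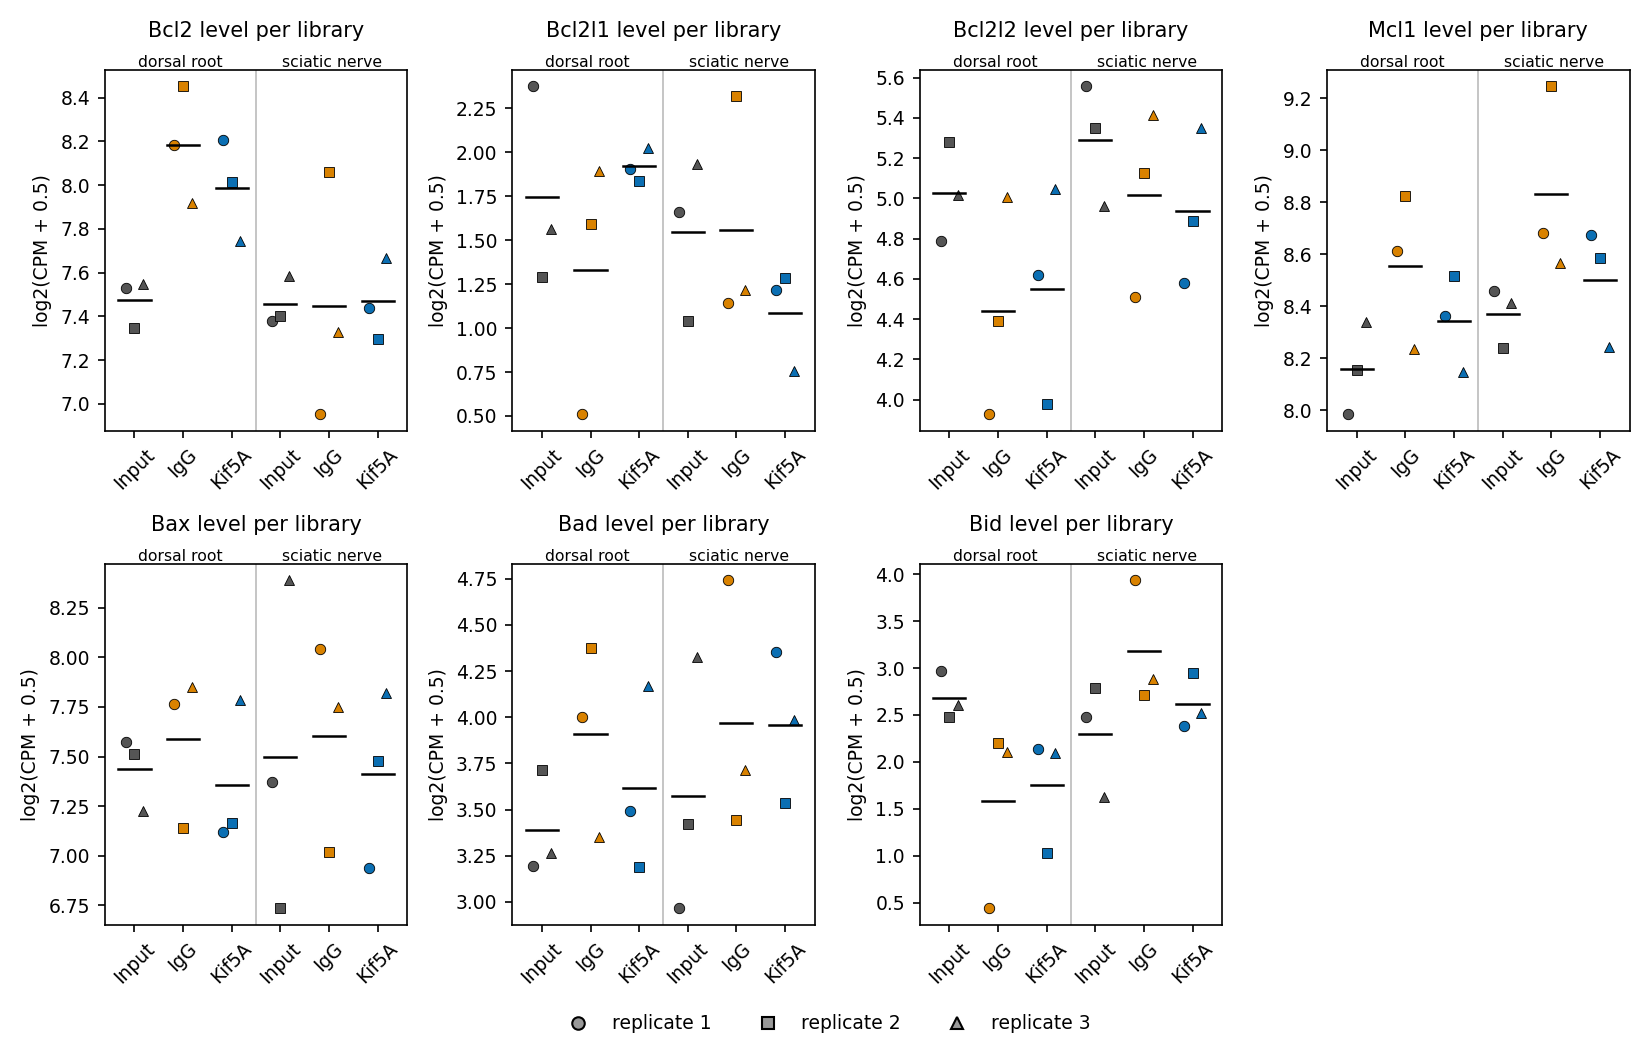
Levels of the 7 other members in each library, as log2(CPM + 0.5) on the vertical axis, which spans a different range in each panel; symbols mark replicates and bars the mean of 3 log values. The Bcl2 precipitates of dorsal root lie above the input, those of Bid lie below it, and the Bax value of replicate 3 in the sciatic nerve input stands at 334 CPM.

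Across the members, the Kif5A precipitate could not be told from the IgG precipitate in the tests allowed. In DR, 0 of 8 members passed edgeR's quasi-likelihood test for Kif5A against IgG, where 0% of 12638 genes did; none had an unadjusted p under 0.05, which 5.93% of genes had, and DESeq2 and limma-voom called none of them. Their log2 ratios ran from -0.26 to 0.62 with a median of -0.16, beside -0.0099 over all genes tested. In SN, 0 of 8 passed, where 0.0475% of genes did and 8.51% had an unadjusted p under 0.05, again none of them members; DESeq2 and limma-voom called none. The ratios there ran from -1.28 (Bik) to 0.0054 (Bcl2), with 1 of 8 above 0 and a median of -0.24 beside -0.014 over all genes; 49.2% of all genes were above 0. The difference of the ratio between the tissues was tested for 7 members and passed for none, as for 0% of genes; an unadjusted p under 0.05, which 6.45% of genes had, was reached by none of them. On simulated data, a change of 2 on the log2 scale was called in 24% of genes and a change of 3 in 51% for Kif5A against IgG in DR. Genes of low mean level, such as Bcl2l1, were not among those changed, and each gene had the same spread in all libraries. In the data, the median SD of log2 levels over 12060 genes was 0.79 in DR IgG and 0.44 in DR Kif5A. The simulated shares therefore need not hold for the members.

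Against input, 0 of 8 members passed in DR with Kif5A (0% of 12767 genes; log2 -0.96 to 0.52), 0 of 8 in SN with Kif5A (0.00783%; -0.61 to 0.48), 0 of 8 in DR with IgG (1.25%; -1.03 to 0.72) and 0 of 8 in SN with IgG (3.85%; -0.25 to 1.81). No member had an unadjusted p under 0.05 for Kif5A against input, which 8.55% of genes had in DR and 6.05% in SN. It was reached by Bcl2 in DR and by Bik in SN, both for IgG against input, where 19.4% and 19.2% of genes reached it. DESeq2 called Bik in the latter and no other member, and limma-voom called none. Because the comparisons of IgG and Kif5A with input share the input libraries, their agreement for Bcl2 and Bid counts once.

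**Figure D4:**
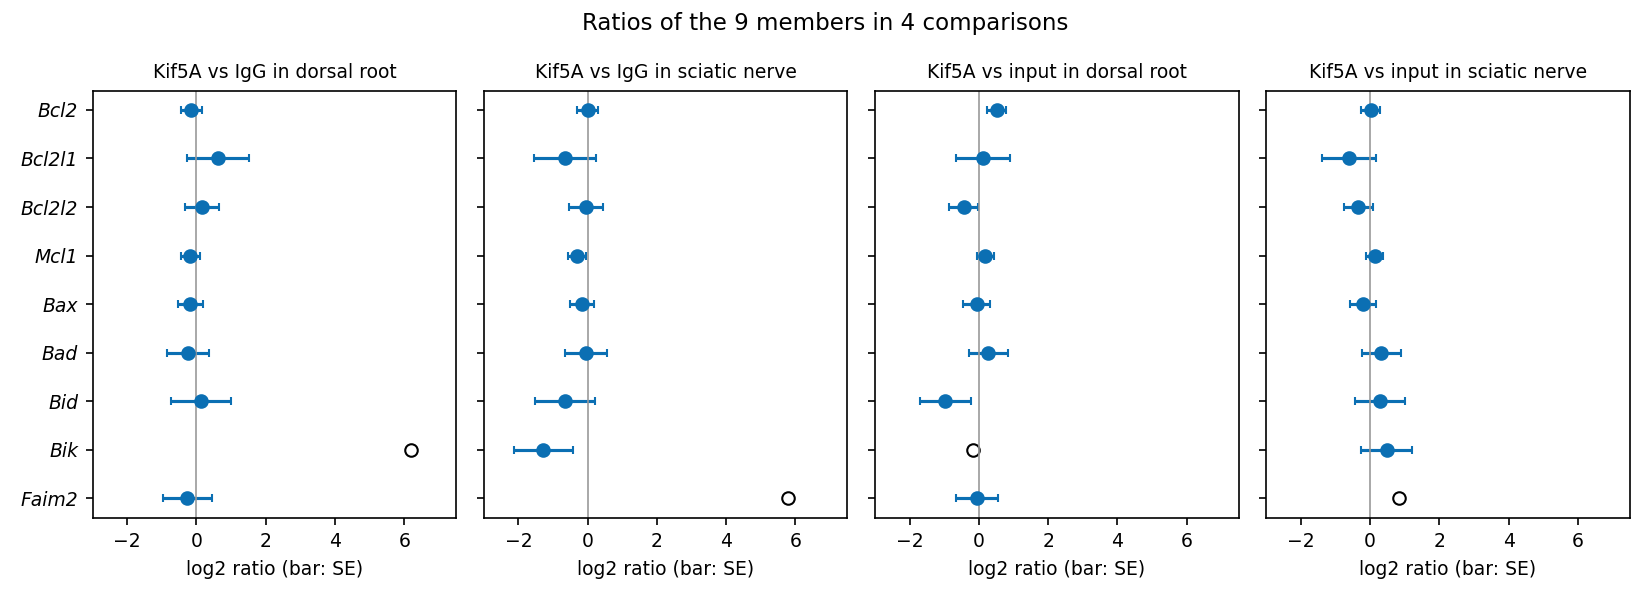
Log2 ratios of the 9 measured members (horizontal axis) for Kif5A against IgG and Kif5A against input in both tissues; filled points carry the SE, and open circles mark ratios of Bik and Faim2 built on the libraries that chose them, given with no error. The filled points run from -1.28 to 0.62, and the open circles for Kif5A against IgG stand at 6.18 and 5.78.

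Levels of different genes were compared per length, as reads relative to transcript length and library total (RPKM). Bax was highest in every group, followed by Mcl1, Bcl2 and Bad: 200 ± 25.2, 83.8 ± 10.3, 24.7 ± 1.88 and 11.9 ± 2.93 RPKM in the DR input, and 233 ± 137, 96.8 ± 7.62, 24.4 ± 1.96 and 14.0 ± 6.0 in the SN input. In both inputs these 4 genes did not overlap one another, while Bad overlapped Bcl2l2, next at 9.24 ± 1.60 in DR and 11.1 ± 2.27 in SN. Faim2 stood at 7.82 ± 1.26 RPKM in the DR input, overlapping Bcl2l2, and lowest of all in the SN input at 0.252 ± 0.121. Bid, Bik and Bcl2l1 closed the order in the DR input at 2.74 ± 0.532, 2.31 ± 0.927 and 1.87 ± 0.967, each overlapping the next. In the SN input Bik was sixth at 4.62 ± 1.36, with no overlap with Bid below it. In the SN IgG precipitate, Bik reached 16.2 ± 5.39 RPKM and overlapped Bad at 22.0 ± 11.6.

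Single transcripts of a member differed widely between IgG libraries of one group. Bad-204 had 0, 181 and 74 reads in the DR IgG libraries and Bad-201 had 196, 12 and 1, while their sums with the other Bad transcripts were 235, 266 and 169. Bcl2l1-203 had 0, 20 and 37 reads in DR IgG and 0, 68 and 6 in SN IgG. The Bad transcript with the most reads was thus Bad-201 in replicate 1 of DR IgG and Bad-204 in replicates 2 and 3. Over all 9 members, the median SD of the log2 gene levels was 0.52 in DR IgG and 0.53 in SN IgG, against 0.25 to 0.46 in the other groups; over 12060 genes it was 0.79 and 0.76 with IgG and 0.29 to 0.50 elsewhere.

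Bcl2l2-203, a transcript of 3 exons and 3813 bases singled out after its values were seen, had 12, 13 and 10 reads in the SN input and none in the 3 SN Kif5A libraries. With a floor of 3 reads set for the Kif5A group, it was 13.9-fold lower with Kif5A, a value that leaves out the spread between libraries. In the authors' deposited table its log2 fold change from input was -8.82 with a false discovery rate of 0.0408. How many other transcripts had such zeros or such a rate was not counted here. The SN IgG libraries had 1, 115 and 0 reads, DR Kif5A had 62, 0 and 7, DR IgG 0, 0 and 1, and the DR input 5, 7 and 6. The other counted transcript of this gene, Bcl2l2-201, had 372 to 740 reads in every Kif5A and input library of SN.

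**Figure D5:**
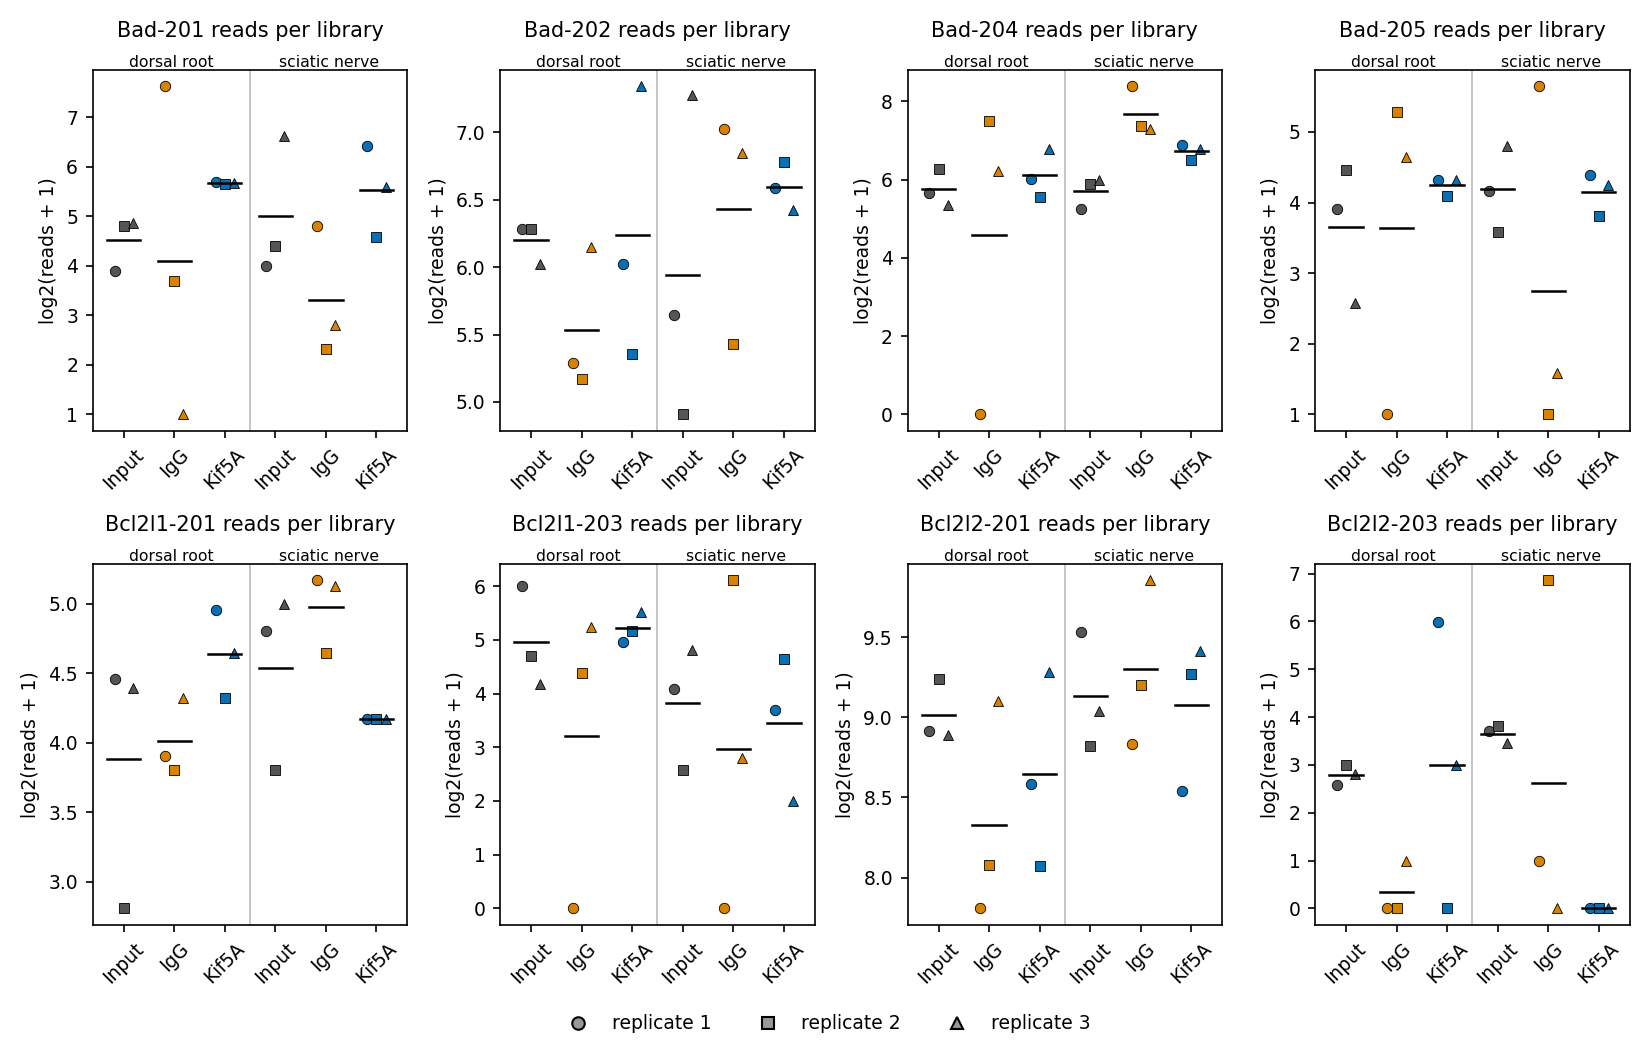
Reads of single transcripts of Bad, Bcl2l1 and Bcl2l2 in each library, as log2(reads + 1) on the vertical axis, which differs between panels; symbols mark replicates and bars the mean of 3 log values. Single IgG libraries fall to 0 or 1 read for Bad-201, Bad-204, Bad-205, Bcl2l1-203 and Bcl2l2-203, and Bcl2l2-203 lies at 0 in 1 Kif5A library of dorsal root and in all those of sciatic nerve.

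Of 65 further genes of these pathways, in 5 lists, 55 were measured. None passed for Kif5A against IgG or against input in either tissue, where 0% to 0.0475% of genes did. The list of other Bcl2 relatives and BH3-only genes had 15 of 18 members measured and none past the threshold in any comparison. Its smallest p for Kif5A against IgG in DR belonged to Bcl2l15, which had no read in the DR IgG libraries, 9, 5 and 42 with Kif5A and 38, 38 and 4 in the input (edgeR's adjusted p = 0.656 for Kif5A against IgG). Bbc3, the p53 target Puma, followed with -1.04 (SE 0.61, adjusted p = 0.995 by edgeR). In SN, Bcl2l15 (0, 0 and 4 IgG reads) and Pmaip1, the p53 target Noxa (0, 41 and 2 IgG reads), came first and did not pass either (adjusted p = 0.567 and 0.614 by edgeR).

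Among the 6 measured relatives of Faim2, Grina, another TMBIM protein, was higher with IgG than in the input of SN, as 1.41% of genes were (log2 1.15, SE 0.30, adjusted p = 0.0442 by edgeR), at 623 ± 95.7 against 281 ± 23.9 CPM. The call was lost in 5 of 6 fits that left out 1 library, remaining without replicate 3 of the SN IgG libraries, and with 3 other settings. Tmbim4 was the relative with the smallest p between the inputs, at -0.86 (SE 0.23, adjusted p = 0.0890 by edgeR), not past the threshold.

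The death receptor list had 10 of 12 genes measured, and holds the receptors that Faim2 and Bid relate to. Fas, the receptor Faim2 acts on, was higher with IgG than in the input of SN (log2 2.80, SE 0.63, adjusted p = 0.0277 by edgeR), at 127 ± 86.9 against 18.1 ± 5.46 CPM, with IgG reads of 3899, 3315 and 607. Casp8, the protease that cleaves Bid, had no read in the SN IgG libraries, 9, 18 and 49 in the input and 52, 16 and 40 with Kif5A. With a floor of 3 reads set for IgG, the input held 35.2-fold more (adjusted p = 0.0416 by edgeR, IgG against input, where 2.44% of genes passed as lower). In DR, Casp8 had 38, 152 and 0 reads with IgG, 22, 14 and 14 in the input and 85, 86 and 36 with Kif5A, and did not pass. Tnfrsf10b, a death receptor for TRAIL, had 0, 0 and 1 reads in DR IgG, 52, 13 and 15 in the input and 40, 19 and 24 with Kif5A, an input-to-IgG ratio of 74.8 (95% Poisson interval 13.0 to 2989; adjusted p = 0.0408 by edgeR; 0.666% of genes passed as lower with IgG in DR). In SN IgG its reads were 527, 58 and 88, all above the 26, 30 and 36 of the SN input, which 10% of the genes tested showed; the SN Kif5A libraries, with 40, 66 and 21, overlapped both. Positions on opposite sides of the input in the tissues were found in 1.26% of genes, as given for Bik. The Fas and Tnfrsf10b calls remained in 1 of 6 fits that left out 1 library (without replicate 3 of the IgG group), and the Casp8 call in none. The Casp8 call was also lost with the replicate block within each tissue (adjusted p = 0.0635), with transcripts listed in both tables only (0.0806) and with only the groups compared (0.0893), all by edgeR.

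Between the inputs, Ngfr, the neurotrophin receptor p75, was higher in SN, as 2.54% of genes were (log2 1.60, SE 0.30, adjusted p = 0.0190) and Tnfrsf21, the death receptor DR6, lower (log2 -1.36, SE 0.31, adjusted p = 0.0427), both by edgeR. Ngfr had 30.1 ± 5.28 CPM in the SN input and 10.1 ± 2.07 in DR; Tnfrsf21 had 12.02 ± 3.88 and 31.2 ± 0.896. The Ngfr call remained in 1 of 6 fits that left out 1 library (without replicate 3 of the SN input), and the Tnfrsf21 call in 2 of 6 (without replicate 2 or 3 of the SN input).

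The caspases, their activators and inhibitors had 15 of 18 genes measured and none past the threshold; Htra2, a mitochondrial protease, came closest with IgG against input in DR (log2 2.92, SE 0.70, adjusted p = 0.0502 by edgeR). Of 9 measured mitochondrial partners and axon survival genes, Vdac2, the outer-membrane channel that binds Bak1, was lower with IgG than in the input of both tissues (log2 -1.24, SE 0.29, adjusted p = 0.0454 in DR, and -1.49, SE 0.29, adjusted p = 0.0167 in SN, by edgeR). Its level was 165 ± 38.1 against 389 ± 48.1 CPM in DR and 142 ± 14.6 against 400 ± 12.1 in SN. Of all genes tested, 0.666% passed as lower with IgG in DR and 2.44% in SN. The DR call remained in 1 of 6 fits that left out 1 library (without replicate 3 of DR IgG), and the SN call was lost without replicate 1 or 2 of the SN input. Kif5A against input in Vdac2 was -0.96 (SE 0.29) in DR and -1.13 (SE 0.29) in SN, neither past the threshold (adjusted p = 0.330 and 0.511 by edgeR). Nmnat2, the axon survival enzyme, had -0.65 (SE 0.30, adjusted p = 0.358 by edgeR) between the inputs.

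The genes most like Bik over the 18 libraries, by Pearson's r of log2(CPM + 0.5) among 12060 genes, were Myct1 (0.94), Chst1, a sulfotransferase (0.92), and Hadh, an enzyme of fatty acid oxidation (0.92). Myct1 had 0.127 CPM with IgG in DR and 51.0 with IgG in SN, as the means of 3 libraries. Hadh differed less, at 109 and 484 CPM. For Faim2 they were Slc4a1, the anion exchanger of red cells (0.97), Aldoc, an aldolase of astrocytes (0.97), and Slc7a11, a cystine transporter (0.96). Aldoc had 33.7 CPM in the DR input and 1.51 in the SN input, and 49.1 and 0.700 with IgG. The 18 points share libraries and fall into 6 groups, so these values describe the groups' order.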

How the data were processed

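RNA of 18 libraries was made with the SMART-Seq v4 kit, per the labels' protocols, a low-input method with PCR. The authors deposited raw read counts per Ensembl transcript, 1 table per tissue, beside their own log2 fold changes and p-values (as false discovery rates), per the file headers. The submitters' processing notes name mm10 (GRCm38), edgeR and CASAVA 1.8.2; for aligner, counter, strand use and filters the sources used here give nothing, so overlapping genes cannot be told apart. Rows with no gene name held 0.138% to 0.237% of counts and were left out.

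Counts were summed per gene name over each tissue's own table. Groups were compared with edgeR 4.0.16 in R 4.3.3 (robust quasi-likelihood test, TMM, filterByExpr, two-sided p adjusted by Benjamini-Hochberg over all genes tested, threshold 0.05): the 12 precipitates for Kif5A against IgG, all 18 libraries for comparisons with input, and the 6 inputs. The tests were checked on simulated counts. CPM and RPKM were computed here from the counts. Poisson intervals and the floor of 3 reads cover counting error only: reads copied by PCR, with no molecular identifiers, are not separate molecules. Gene positions are from GENCODE M21. List genes were named by adjusted p under 0.05, or else as the 2 with the smallest p in a list, of which a selection is given; genes alike in pattern were the 3 with the highest r and a mean of at least 1 CPM. Summed marker levels are relative to library size alone. Markers of myelinating Schwann cells are not reported here.

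Members and lists were chosen with earlier results of these data known. Replicate numbers run from 1 to 3 in every group; the labels do not say that equal numbers share animals. Deviations from the group means of equally numbered libraries correlated above 0.1 in every pair for Kif5A against input in SN (0.134 to 0.389) and for the inputs (0.225 to 0.465), over 8460 genes, and not for the other comparisons. Some unequal numbers correlated as much: 0.333 for DR input replicate 1 with SN input replicate 2, and 0.296 for SN input replicate 1 with SN Kif5A replicate 2. In these comparisons, replicate 3 of one group correlated negatively with replicates 1 and 2 of the other (-0.427 to -0.152). The values therefore do not show that equal numbers are pairs. The fits reported use no replicate block.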

Additional observations from a re-analysis of the deposited data

Results flagged for a closer look

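Bik is noted because its libraries moved in opposite directions in the tissues. All 3 Kif5A libraries lay above all IgG libraries in DR and below them in SN, and the log2 ratio of Kif5A to IgG was lower by -7.46 in SN. All IgG libraries lay below the input in DR and above it in SN, a difference of 8.07 on the log2 scale. Both sizes rest on 1 read in DR IgG: the DR ratio of Kif5A to IgG was 6.18, 5.39 with limma-voom and 8.19 without replicate 3 of DR IgG, and that of IgG to input was -6.27, -5.42 and -8.24. Neither difference was tested, because the DR values were among those that chose the gene; 0.524% and 1.26% of the 12782 genes had such opposite positions in the first and the second comparison.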

How the results depend on the processing

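The Faim2 difference between the inputs kept its direction and its call in all 14 alternatives (log2 -5.43 to -4.59). With the replicate number as a block, against the possibility that equal numbers pair the libraries, it was -5.00 (adjusted p = 1.03e-04 by edgeR), and the block changed no other member's call. DESeq2 alone called Bik for IgG against input in SN, and no other alternative changed a member's call. Scaling by library size alone moved the median of all genes against TMM by 0.35 for Kif5A against input in DR, 0.25 for IgG against input in DR and 0.18 for Kif5A against input in SN. Leaving replicate 3 out of every group was chosen after seeing the data. The cause of the changes below was not tested; fits to the groups compared, or without a library, use fewer samples. Outside the fits that left out 1 library, calls of list genes were lost in 12 cases: Tnfrsf10b, Vdac2 (both tissues), Grina, Fas and Casp8 with only the groups compared, Grina also with RLE factors and with library size alone, Tnfrsf21 with library size alone, Fas with limma-voom, and Casp8 with the block within tissue and with transcripts listed in both tables only.

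The number of genes past the threshold depended on the test. For Kif5A against IgG in DR it was 0 with edgeR, 2 with limma-voom and 150 with DESeq2, and 0 to 2 when 1 library was left out. In SN it was 6, against 1 with the replicate block, 0 with the block within each tissue, 430 with DESeq2, 0 in a fit of only the groups compared, 0 without replicate 3 of every group, and 0 to 30 when 1 library was left out. For the difference between tissues it was 0, against 2 with transcripts listed in both tables only and 192 with DESeq2 (0 to 23 when 1 library was left out). For Kif5A against input in DR it was 0, against 174 with DESeq2, 454 with only the groups compared and 460 without replicate 3 (0 to 1 when 1 library was left out). In SN that count was 1, against 0 with the replicate block within tissue, limma-voom or only the groups compared, 49 with DESeq2 and 113 without replicate 3 (0 to 7). For IgG against input in DR it was 160, against 329 with library size alone, 644 with the replicate block, 475 with the block within tissue, 377 with limma-voom, 1428 with DESeq2, 0 with only the groups compared and 1627 without replicate 3 (5 to 1367). In SN it was 492, against 1418 with DESeq2, 6 with only the groups compared and 1257 without replicate 3 (51 to 864). Between the inputs it was 542, against 713 with the replicate block, 1137 with DESeq2 and 3631 without replicate 3 (230 to 2661).

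Member ratios near 0, none past the threshold, changed sign. With library size alone, Kif5A to input in DR became 0.27 for Faim2 and for Bax and, untested, 0.17 for Bik, Kif5A to IgG in SN 0.010 for Bcl2l2 and 0.045 for Bad, and Bcl2 between the inputs 0.0092. RLE factors gave Bcl2 -0.022 for Kif5A to IgG in SN, -0.0068 for Kif5A to input in SN and 0.0064 between the inputs, and Bax -0.0092 for IgG to input in SN; DESeq2 gave -0.022, -0.0069, 0.0064 and -0.0092. Fits to only the groups compared gave -0.0058 for Bcl2 (Kif5A to IgG, SN) and -0.0032 for Bax (IgG to input, SN). In SN, limma-voom gave -0.015 for Bcl2 and -0.031 for Bcl2l1 (IgG to input) and 0.0090 for Bad (Kif5A to IgG), and the replicate block within tissue gave -0.035 for Bcl2l1 (IgG to input) and 0.037 for Bad (Kif5A to IgG). Without replicate 3 of every group, Kif5A to IgG in SN was -0.18 for Bcl2, Kif5A to input in DR was -0.0032 for Bcl2l1 and -0.066 for Bad, Kif5A to input in SN was 0.23 for Bax, IgG to input in DR was -0.033 for Bax, and the inputs gave -0.48 for Bax and -0.31 for Bad.

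When 1 library was left out, Kif5A to IgG in DR ran from -0.12 to 0.50 for Bcl2l2, -0.59 to 0.018 for Bad and -0.31 to 0.46 for Bid. In SN it ran from -0.22 to 0.35 for Bcl2, -0.30 to 0.19 for Bcl2l2, -0.42 to 0.056 for Bax and -0.29 to 0.46 for Bad. Untested, Kif5A to input ran from -0.40 to 0.062 for Bik in DR and from -0.25 to 1.28 for Faim2 in SN. Kif5A to input in DR ran from -0.29 to 0.098 for Faim2, -0.083 to 0.64 for Bcl2l1, -0.25 to 0.063 for Bax and -0.0099 to 0.51 for Bad, and in SN from -0.087 to 0.10 for Bcl2, -0.51 to 0.37 for Bax and -0.0073 to 0.58 for Bid. IgG to input ran from -0.82 to 0.029 for Bcl2l1 in DR, and in SN from -0.31 to 0.28 for Bcl2, -0.51 to 0.34 for Bcl2l1, -0.30 to 0.58 for Bax and -0.10 to 0.91 for Bad. Between the inputs it ran from -0.079 to 0.032 for Bcl2, -0.51 to 0.22 for Bcl2l1, -0.35 to 0.54 for Bax and -0.21 to 0.56 for Bad.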
